A study of Mus musculus with 26 samples.

Results

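EZH2 was mapped by CUT&RUN, in which an antibody directs a nuclease to its target and the released DNA is sequenced, in wild type (WT) mouse embryonic fibroblasts (MEFs) and in MEFs carrying an ATRX shRNA (ATRX KD). Each group had 2 libraries, and their 4 broad peak lists held 53136 of the 272147 regions in the 16 CUT&RUN peak lists of the series. WT replicate 1 gave 22316 peaks, WT replicate 2 gave 18351, ATRX KD replicate 1 gave 5376 and ATRX KD replicate 2 gave 7093. A WT replicate 1 peak was called reproducible when it overlapped a WT replicate 2 peak by at least 1 bp, which held for 15596 of 22316. A reproducible peak was called kept when it also overlapped both ATRX KD lists (3652 peaks) and lost when it overlapped neither (9216 peaks). The other reproducible peaks overlapped only ATRX KD replicate 1 (750) or only ATRX KD replicate 2 (1978).

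The cells are female MEF lines, the ATRX KD line was made with an shRNA and puromycin selection, and no other allele or agent is named for either group. MEFs in which the RNA-binding region was deleted from endogenous ATRX by CRISPR (ATRXΔRBR, a clonal line) were used here as a further pair of EZH2 lists, and H3K27me3 CUT&RUN and poly(A) RNA-Seq of the same lines were used to describe the peaks. The labels do not say whether replicates came from separate cultures, and the study's methods call the sequenced replicates biological. Estimated RNA-Seq counts per library ranged from 9051693 to 21723647 over the WT and ATRX KD libraries, while the sequencing depth behind the peak lists cannot be read from them. Summed TPM (transcript level scaled for length and depth) of 10 fibroblast markers ranged from 7439 to 11811 in those 4 RNA libraries, and 8 of the 10 markers reached 1 TPM in each. Atrx RNA did not follow the label, with TPM of 233 and 141 in WT and 331 and 512 in ATRX KD, and counts that gave a log2 fold change of -0.15 (SE 0.21, edgeR adjusted p = 0.604). The libraries are therefore named below only by their label, as KD-labelled, although the study assessed its lines by western blot. Raw file names of the WT and ATRXΔRBR libraries carry a sequencing run that those of the KD-labelled libraries, RNA-Seq and H3K27me3 included, do not, so a difference in run and the label cannot be told apart.

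EZH2 is the catalytic subunit of Polycomb repressive complex 2 (PRC2), which methylates histone H3 on lysine 27 to give H3K27me3, the mark of repressed developmental genes. PRC2 sits over CpG-rich promoters and, at clusters such as the Hox genes, over whole domains. ATRX is a chromatin remodeler that acts with the chaperone DAXX in H3.3 deposition, is found at pericentromeric and telomeric repeats, and has been tied to PRC2 localization and the inactive X chromosome. The ATRX KD libraries served the study as the reference for EZH2 localization when ATRX is depleted, beside the deletion of the RNA-binding region.

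The sequences below are the central 300 bases of EZH2 peaks, on the plus strand of GRCm38 (mm10), with CpG dinucleotides in capitals. They give an example pair of each class, 2 kept domains, 2 lost peaks and 2 peaks found only in the KD-labelled lists, and the kept and lost windows overlap in their CpG counts. The kept pair are the centres of the domains at Hoxc10 (chr15:102975791-102976090, within the Hoxc5 gene) and Hoxa10 (chr6:52245885-52246184, within the noncoding gene Hoxa11os), with 12 and 19 CpG.
Hoxc10 domain, kept: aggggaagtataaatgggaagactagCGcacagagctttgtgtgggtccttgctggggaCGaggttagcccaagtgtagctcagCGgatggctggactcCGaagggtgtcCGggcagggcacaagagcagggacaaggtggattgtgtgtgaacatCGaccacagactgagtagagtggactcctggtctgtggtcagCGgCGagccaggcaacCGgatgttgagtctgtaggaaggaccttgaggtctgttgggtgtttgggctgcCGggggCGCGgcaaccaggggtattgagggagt
Hoxa10 domain, kept: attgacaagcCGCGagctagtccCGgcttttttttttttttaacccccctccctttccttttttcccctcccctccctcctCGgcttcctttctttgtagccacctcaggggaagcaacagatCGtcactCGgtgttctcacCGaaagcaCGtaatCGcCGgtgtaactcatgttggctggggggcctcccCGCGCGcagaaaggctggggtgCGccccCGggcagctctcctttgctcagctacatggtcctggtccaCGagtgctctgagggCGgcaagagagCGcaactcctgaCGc
The lost pair lie at Pcdh7 (chr5:57717057-57717356, within the noncoding gene 4932441J04Rik) and in Tbx5 (chr5:119837100-119837399), with 14 and 11 CpG.
Pcdh7, lost: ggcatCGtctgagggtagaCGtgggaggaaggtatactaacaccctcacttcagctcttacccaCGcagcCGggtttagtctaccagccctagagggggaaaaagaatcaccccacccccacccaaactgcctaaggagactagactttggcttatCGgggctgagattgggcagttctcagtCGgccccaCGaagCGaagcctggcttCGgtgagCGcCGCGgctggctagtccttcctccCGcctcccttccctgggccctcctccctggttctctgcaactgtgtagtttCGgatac
Tbx5, lost: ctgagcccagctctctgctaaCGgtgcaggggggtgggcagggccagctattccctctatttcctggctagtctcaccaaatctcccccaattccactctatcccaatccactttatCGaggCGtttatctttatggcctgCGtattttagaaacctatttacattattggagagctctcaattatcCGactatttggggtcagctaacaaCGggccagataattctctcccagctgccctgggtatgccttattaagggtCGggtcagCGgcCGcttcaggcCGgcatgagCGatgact
The gained pair lie in the predicted genes Gm10800 (chr2:98666642-98666941) and Gm10801 (chr2:98662975-98663274), with 9 and 1 CpG, and 98.0% and 60.3% of their bases are repeat-masked in the reference.
Gm10800, gained: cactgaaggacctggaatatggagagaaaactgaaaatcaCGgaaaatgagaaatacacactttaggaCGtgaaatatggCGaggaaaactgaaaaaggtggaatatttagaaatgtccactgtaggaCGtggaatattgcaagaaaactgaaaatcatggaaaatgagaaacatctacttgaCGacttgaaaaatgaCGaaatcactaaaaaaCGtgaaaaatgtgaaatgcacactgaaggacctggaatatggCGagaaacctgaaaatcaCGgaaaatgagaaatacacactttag
Gm10801, gained: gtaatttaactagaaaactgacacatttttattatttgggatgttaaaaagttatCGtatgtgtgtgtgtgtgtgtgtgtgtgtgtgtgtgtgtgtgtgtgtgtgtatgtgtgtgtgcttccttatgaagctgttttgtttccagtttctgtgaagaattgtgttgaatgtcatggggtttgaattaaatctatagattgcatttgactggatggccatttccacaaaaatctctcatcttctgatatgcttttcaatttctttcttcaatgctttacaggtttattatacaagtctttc

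EZH2 peaks in the KD-labelled lists were fewer and narrower, and those that remained lay mostly at gene starts. The mean covered length was 16662 kb ± 2066 (SD, n = 2) in WT and 3487 kb ± 759 in the KD-labelled lists, a ratio of 0.209, against a ratio of 0.307 for the number of peaks. Median peak width differed little, at 466 bp in both WT lists and 418 and 448 bp in the KD-labelled lists, whereas the widest peaks did not overlap between the groups: 134831 and 131073 bp in WT, and 5581 and 5590 bp in the KD-labelled lists. Peaks of at least 5 kb numbered 299 and 292 in WT and 2 and 2 in the KD-labelled lists. The share of peaks within 2 kb of a transcription start site (TSS) was 52.4% and 57.6% in WT and 74.5% and 72.2% in the KD-labelled lists. Median CpG density was 4.32 per 100 bp ± 0.759 in WT and 7.22 ± 0.0391 in the KD-labelled lists (SD, n = 2). In all of these measures the 2 groups did not overlap, and the two-sided exact permutation p was 0.333, the smallest that 2 against 2 libraries can give.

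Of the reproducible WT peaks, 23.4% were kept and 59.1% were lost. Kept peaks were wider, with a median of 1024 bp against 446 bp for lost peaks, and stood higher above background, with a median fold enrichment of 6.53 against 4.83. The kept share was 1.61% of 1744 peaks under 250 bp, 53.9% of 1077 peaks from 2 to 5 kb, and 79.9% of 298 peaks of 5 kb or more. A wider peak meets an overlap of 1 bp more easily, and the part of this rule in the trend with width was not tested. Ranked by -log10 q, the peak caller's evidence, and divided into 4 equal groups of 3899, the kept share was 3.13% in the lowest group and 56.8% in the highest. In that highest group 975 peaks were still lost. With KD-labelled replicate 1 left out, kept needs overlap with replicate 2 only, a looser rule under which the share (36.1%) cannot fall. Every list was also reduced to its 5376 strongest peaks, the length of the shortest list. Of 3656 reproducible peaks, 56.4% were then kept and 25.2% were lost. This cut also limits the WT lists to their strongest peaks. In the uncut lists, the highest -log10 q group already had 56.8% of 3899 peaks kept and 975 lost. The part of list length in the smaller lost share was therefore not tested.

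**Figure D1:**
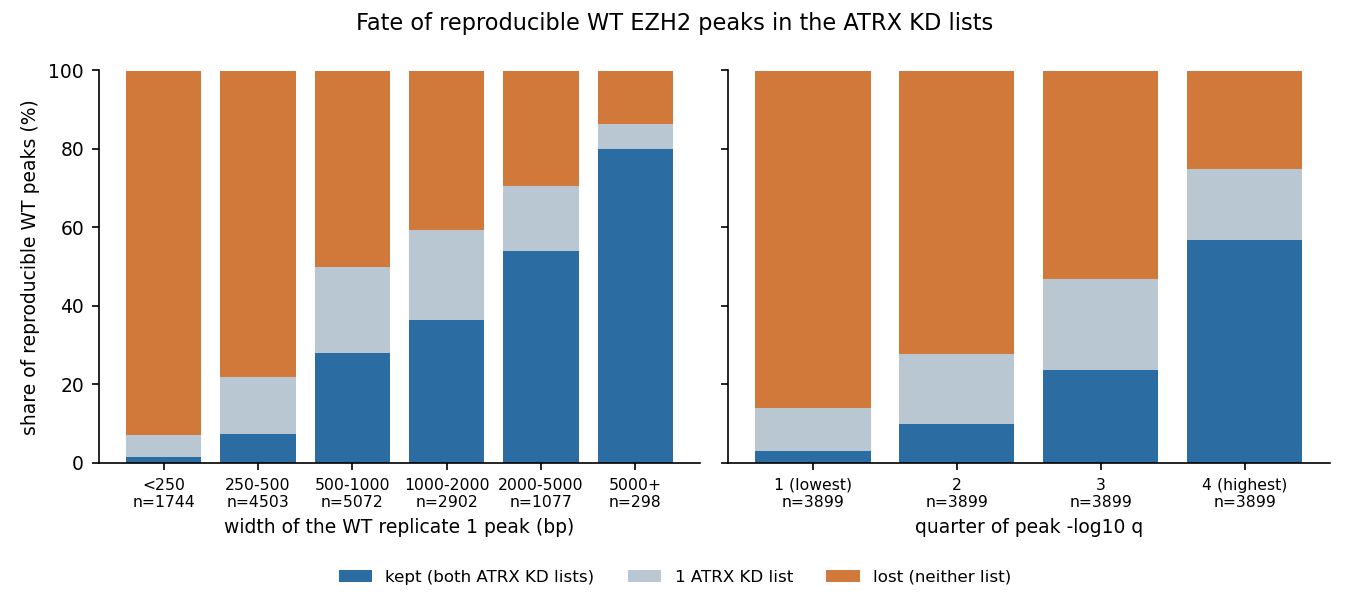
Stacked bars give the share (%) of reproducible WT replicate 1 EZH2 peaks that overlapped both, 1 or neither KD-labelled list, by peak width in bp (left) and by group of -log10 q from lowest to highest (right), with n under each bar. The kept share runs from 1.61% in the narrowest peaks to 79.9% in the widest, and from 3.13% to 56.8% across those groups. Overlap of 1 bp counts, which a wider peak meets more easily.

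Overlap by 1 bp hides how much of a wide domain was still called. Of the 298 reproducible WT domains of 5 kb or more, 245 were touched by KD-labelled replicate 1 and 250 by replicate 2, but the KD-labelled peaks covered a median of 12% and 14.5% of a domain. WT replicate 2 covered a median of 95.5% of the same domains, and the ATRXΔRBR lists covered 63.8% and 85.8%. The ATRXΔRBR lists therefore differed from each other by more than the KD-labelled lists did, and 42 of the domains were not touched by ATRXΔRBR replicate 1. Among all kept peaks, the median share of the peak covered was 43.0% and 48.5% in the KD-labelled lists and 88.5% in WT replicate 2. With an overlap of at least 50% of the peak required, 7.89% of reproducible peaks were kept and 76.0% were lost. KD-labelled replicate 1 covered at most 49.1% of any of the 298 wide domains, so none of them was kept under that rule.

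**Figure D2:**
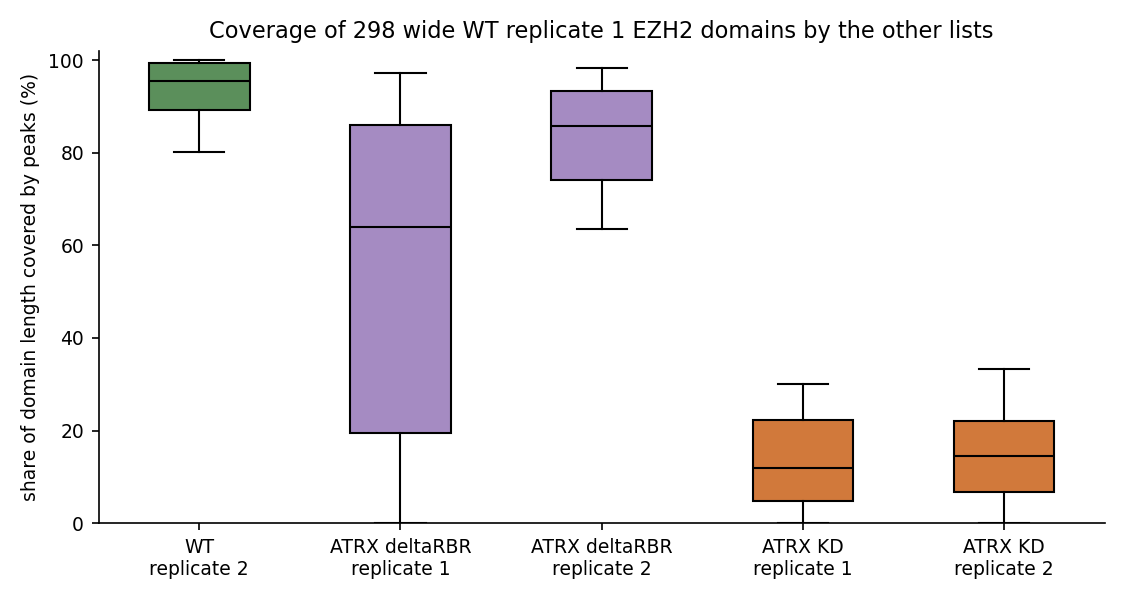
Boxes show the share (%) of each of 298 wide WT replicate 1 EZH2 domains that was covered by peaks of the other EZH2 lists (line, median; box, quartiles; whiskers, 10th and 90th percentiles). The medians are 95.5% for WT replicate 2 and 12% and 14.5% for the KD-labelled lists.

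The widest kept domain spanned the Hoxc cluster (chromosome 15, 102908526 to 103043356, 134831 bp), whose homeobox genes pattern the trunk and limbs along the body axis. WT replicate 2 covered 98.8% of it in 3 pieces, and the ATRXΔRBR lists 99.4% and 98.8%. KD-labelled replicate 1 covered 8.71% in 16 pieces and replicate 2 covered 9.52% in 15 pieces. H3K27me3 showed the same split, with the whole domain covered in both WT lists and 6.21% and 3.73% in the KD-labelled lists. The next domain included Hoxa10, Hoxa11 and Hoxa13 (chromosome 6, 52223277 to 52268793, 45517 bp). There the covered shares were 98.8% in WT replicate 2 and 7.45% and 10.2% in the KD-labelled lists. The TSS windows of Hoxc4, Hoxc5, Hoxc6, Hoxc10 and Hoxa10 held no KD-labelled EZH2 peak although their domains counted as kept, while those of Hoxc8, Hoxc9, Hoxc11, Hoxc12, Hoxc13, Hoxa11 and Hoxa13 did.

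RNA of the genes in these 2 domains was low or absent in most cases. Hoxc4, Hoxc5, Hoxc9, Hoxc10, Hoxc11, Hoxc12 and Hoxc13 were listed at 0 counts throughout, and Hoxa11 and Hoxa13 were as well. Hoxa10 had 32 and 19 counts in WT and 0 in both KD-labelled libraries, at least 8.53-fold lower when each KD-labelled library is set to a floor of 3 counts, and it passed the test (edgeR adjusted p = 0.00342). Hoxa10 is thus a gene whose TSS window lost its called EZH2 peak and whose RNA fell. Hoxa9, whose TSS window had EZH2 in all 4 lists, went from 74 and 72 counts to 1 and 0 and also fell (edgeR adjusted p = 0.000625).

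**Figure D3:**
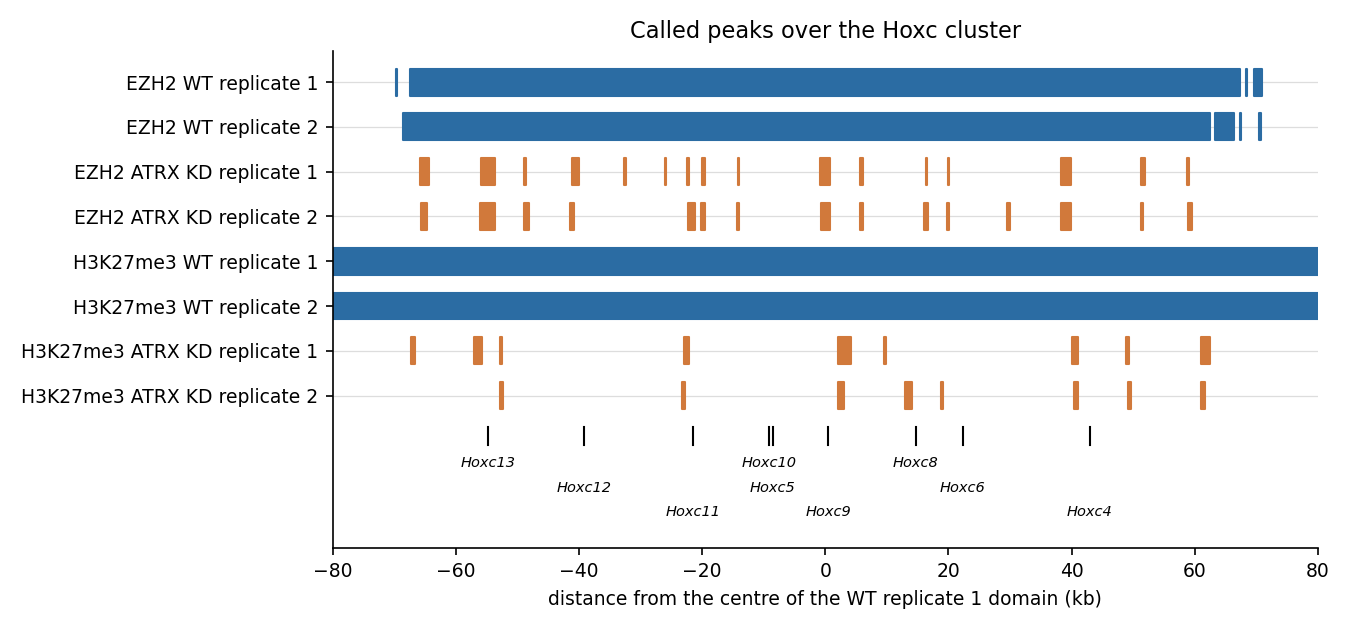
Called EZH2 and H3K27me3 peaks (bars) over the Hoxc cluster in each WT and KD-labelled list, by distance (kb) from the centre of the WT replicate 1 domain, with gene starts marked below. WT lists show near-continuous coverage, and the KD-labelled EZH2 lists show 16 and 15 short pieces.

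Lost peaks at gene starts included wide domains with H3K27me3 and narrow peaks without it. The 12 protein-coding genes with the strongest lost peak at a TSS window free of KD-labelled peaks were Pcdh7, Phb, Tbx5, Smug1, Clec11a, Psmc4, Otx2, Ccdc87, Ccs, Tubb3, Cenpa and Ccdc159, in order of -log10 q from 20.3 to 12.1. Tbx5, a T-box factor of heart and forelimb, had EZH2 peaks of 16278 and 15420 bp and H3K27me3 peaks of 31456 and 20828 bp in WT, and none of either in the KD-labelled lists. Otx2, a homeobox factor of the anterior brain, had EZH2 peaks of 11916 and 2230 bp and H3K27me3 peaks of 31943 and 33600 bp in WT, and none of either in the KD-labelled lists. Pcdh7, a protocadherin of cell adhesion, had EZH2 peaks of 7755 and 8465 bp in WT and 1 KD-labelled H3K27me3 peak, of 1061 bp. At Pcdh7 the WT H3K27me3 peaks were 14074 and 13451 bp. H3K27me3 peaks at all 3 genes were thus wide in both WT lists, while the EZH2 peak at Otx2 was much narrower in replicate 2.

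Phb, Psmc4 and Cenpa, among the 12, had narrow peaks. Phb, a mitochondrial scaffold protein, had EZH2 peaks of 347 and 323 bp in WT. Psmc4, a proteasome ATPase, had peaks of 358 and 513 bp, and Cenpa, the centromeric H3 variant, had peaks of 572 and 504 bp. None of these 3 genes had H3K27me3 in any WT or KD-labelled list. Their RNA was abundant, with TPM of 46.6 and 36.8 for Phb, 197 and 157 for Psmc4 and 378 and 371 for Cenpa in WT. Cenpa RNA fell, to 230.2 and 256 TPM (log2 fold change -0.78, SE 0.12, edgeR adjusted p = 0.00344), whereas Phb (-0.31, adjusted p = 0.269) and Psmc4 (-0.17, adjusted p = 0.431) did not pass the test. Ccs, the copper chaperone of superoxide dismutase, also fell (-0.97, SE 0.24, adjusted p = 0.0192). Pcdh7 had 10 and 4 counts in WT and 0 in both KD-labelled libraries, at least 2.32-fold lower at a floor of 3 counts per library (adjusted p = 0.0265), and Clec11a had 16 and 4 counts and then 0 in both, at least 3.28-fold lower (adjusted p = 0.0253). Smug1, Ccdc87, Tubb3 and Ccdc159 did not pass. Tbx5 and Otx2 RNA was listed at 0 in all 4 libraries. Loss of the called EZH2 peak thus went with no detected RNA at these 2 factors.

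Over all reproducible peaks, H3K27me3 in WT did little to separate kept from lost peaks, while H3K27me3 in the KD-labelled lists did more. The WT H3K27me3 lists overlapped 27% and 27.5% of kept peaks and 21.7% and 22.4% of lost peaks. The KD-labelled H3K27me3 lists, which held 7241 and 6336 peaks against 36011 and 38832 in WT, overlapped 19.9% and 19.6% of kept peaks and 5.30% and 4.61% of lost peaks. Of the 960 kept peaks with H3K27me3 in both WT lists, 63.1% had it in both KD-labelled lists and 20.5% in neither. Of 1934 such lost peaks, 15.6% had it in both and 69.8% in neither. The WT difference of 5.17 percentage points turned to -14.9 in the setting that required overlap of at least 50% of the EZH2 peak. The KD-labelled difference of 14.8 points became 1.43 there. That setting also redefines the classes, to 1032 kept and 9931 lost peaks, so different sets of peaks were compared. The direction of the WT difference thus depends on the setting.

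Position and evidence divided the classes more than the mark did. At gene starts 32.8% of 9759 reproducible peaks were kept, against 8.82% of 3445 in gene bodies and 6.27% of 2392 between genes. Within the group with the highest -log10 q the kept share was 65.1% at gene starts and 29.1% elsewhere. With H3K27me3 in both WT lists the kept share was 43.1% at gene starts and 12.3% elsewhere. With it in neither WT list these shares were 30.3% and 6.15%. In the highest -log10 q group 69.8% were kept with the mark and 52.3% without. In the lower groups the 2 shares lay closer (3.15% and 3.14%, 8.26% and 10.4%, 24.8% and 23.5%). Peaks at least 2 kb wide were kept in 61.9% of 1172 cases with H3K27me3 in both WT lists and in 43.4% of 182 cases with it in neither. From 1 to 2 kb the order was the other way, with 22.1% of 804 and 41.8% of 2036. On the X chromosome, where female cells carry an inactive copy, 21.1% of 265 peaks were kept and 56.6% lost, inside the range of the autosomes (17.2% to 30.3% kept).

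WT ATRX and ATRXΔRBR EZH2 lists were then set against the classes. ATRX peaks of WT replicate 1 overlapped 35.1% of kept and 26.6% of lost peaks, and those of replicate 2 overlapped 18.9% and 17.0%, so the 2 ATRX lists differed from each other by more than the classes did. At gene starts 58.1% of 742 EZH2 peaks with ATRX in both WT lists were kept and 26.3% of 7178 with ATRX in neither. Away from gene starts the shares were 6.15% of 1268 and 9.08% of 3326. Over all positions 25.3% of peaks with ATRX in both WT lists were kept and 20.8% with ATRX in neither. From the lowest to the highest -log10 q group these shares lay close (1.69% and 3.42%, 8.28% and 9.80%, 21.3% and 22.1%, 59.3% and 54.8%). EZH2 in ATRXΔRBR overlapped 92.7% and 92.6% of kept peaks and 72.8% and 52.8% of lost peaks. The mean difference of 29.9 points became 7.35 with lists of equal length. Of 1591 reproducible peaks found in neither ATRXΔRBR list, 1.95% were kept. Even in the highest group of -log10 q, 4.69% of 64 such peaks were kept, against 61.0% of 3345 peaks found in both ATRXΔRBR lists.

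Base composition differed more between kept and lost peaks away from gene starts than at them. Kept peaks had a median of 7.08 CpG per 100 bp and lost peaks 3.13. At gene starts the medians were 7.28 and 7.27, and away from gene starts they were 4.89 and 1.58. The motif GGGCGG, a GC box bound by SP and KLF factors, stood on either strand of the central 300 bp in 68.3% of kept and 58.5% of lost peaks at gene starts, and in 48.1% and 16.7% away from them. It was held by 45.9% of windows of the same length centred on the TSS of 21755 protein-coding genes.

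The motif TGACTCA of AP-1, the Fos and Jun factors of fibroblast enhancers, ran the other way. Away from gene starts it was held by 38.6% of 4814 lost peaks and 8.17% of 453 kept peaks, against 19.9% of all WT replicate 1 peaks and 4.09% of TSS windows. It was also held by 35.2% of the 4786 WT replicate 1 peaks away from gene starts that WT replicate 2 lacked. With WT replicate 2 as the starting list the shares were 39.4% and 6.89%. In whole lists, 35.1% and 35.6% of WT peaks away from gene starts held it and 8.08% and 10.4% of KD-labelled ones. Of 2045 reproducible peaks away from gene starts with the motif, 1.81% were kept, and of 3792 without it 11.0%. Within the highest group of -log10 q these shares were 7.67% of 300 and 39.9% of 596. H3K27me3 in both WT lists was found at 4.6% of those with the motif and 36.7% of those without, while ATRX in both WT lists was found at 34.9% and 14.6%. In each of the 4 groups the kept share was lower with the motif than without it, and motif-bearing peaks seldom carried H3K27me3.

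At gene starts most other motifs differed less. There the ETS motif CCGGAAG was held by 12.4% of kept and 12.9% of lost peaks, the E-box CACGTG by 7.07% and 7.19%, the YY1 motif AAGATGGCG by 2.56% and 2.71%, the NRF1 core CGCATGCG by 2.22% and 2.07% and the telomere unit TTAGGG by 8.76% and 9.60%. The NF-Y box CCAAT was held by 35.1% of kept and 26.6% of lost peaks, against 36.4% of the TSS windows of all protein-coding genes. A G-quadruplex pattern, 4 runs of GGG or longer with gaps of up to 7 bases on either strand, was found in 24.9% and 27.1% at gene starts. Away from gene starts this pattern was found in 20.5% of kept and 8.37% of lost peaks, the other direction, and the shares were 5.96% and 2.43% for ETS and 2.21% and 0.540% for the NRF1 core. These motifs were searched as exact letters on both strands, and a match is no measured binding.

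**Figure D4:**
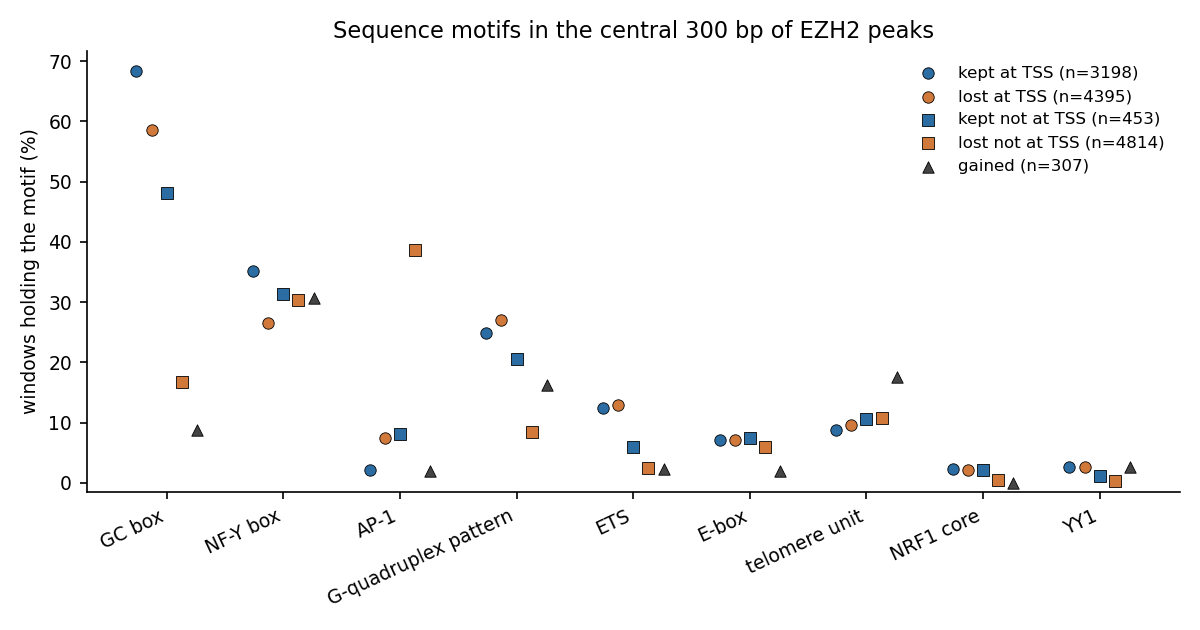
Points give the share (%) of 300 bp windows at peak centres that hold each motif on either strand, for kept and lost peaks at gene starts (circles), away from them (squares), and for gained peaks (triangles). The AP-1 motif stands at 38.6% in lost peaks away from gene starts and at 8.17% or less in the other 4 sets.

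At the level of genes, EZH2 was called within 2 kb of the TSS in both WT lists for 9841 of 21755 protein-coding genes, and 35.8% of them had one in both KD-labelled lists and 40.9% in neither. The developmental lists lay above that kept share, by values that carry no test. Of 30 Hox genes with EZH2 in both WT lists, 53.3% had it in both KD-labelled lists (Hoxa9, Hoxa11 and Hoxa13 among them) and 36.7% in neither (Hoxa3, Hoxa5, Hoxa7 and Hoxa10). Homeobox and Pax genes outside the clusters gave 51.5% of 66, with Barhl1, Barhl2 and Barx2 kept and Alx1, Barx1, Dlx2 and Dlx4 lost. Forkhead, Sox, T-box and Gata genes gave 52.6% of 38, with Foxa1, Foxa2, Foxb1 and Foxc2 kept and Foxc1, Foxd3 and Foxf2 lost. For proneural and other tissue bHLH factors the share was 54.5% of 22, with Bhlhe22, Bhlhe23 and Hand2 kept and Neurod1, Scx, Tcf21 and Twist1 lost, and for Wnt ligands it was 71.4% of 14, with Wnt1, Wnt2b, Wnt3 and Wnt3a kept and Wnt9a, Wnt10a and Wnt10b lost.

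H3K27me3 calls at these genes were fewer in the KD-labelled lists, as they were over all protein-coding genes. H3K27me3 was called at 27 Hox genes in both WT lists and at 6 in both KD-labelled lists, at 60 and 13 of the other homeobox and Pax genes, at 36 and 12 of the forkhead, Sox, T-box and Gata genes, at 22 and 10 of the bHLH genes and at 13 and 10 of the Wnt genes. Over all protein-coding genes the numbers were 3225 and 929. The 2 counts of the Wnt ligands, secreted signals of patterning, lay closest together. Few of these genes had enough RNA to be tested: of 18 Hox genes tested 2 rose and 3 fell, of 32 other homeobox and Pax genes 9 rose and 9 fell, of 30 forkhead, Sox, T-box and Gata genes 1 rose and 9 fell, of 4 bHLH genes 4 fell, and of 9 Wnt genes 2 rose and 3 fell. Over all 16748 genes tested by edgeR, 15.2% rose and 17.8% fell.

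The ribosomal and proteasome lists lay below the kept share of all genes, and the replication helicase list above it, again with no test. Of 51 cytosolic ribosomal protein genes with EZH2 in both WT lists, 19.6% had it in both KD-labelled lists (Rpl15, Rpl21 and Rpl22 among them) and 56.9% in neither (Rpl3, Rpl6, Rpl7a and Rpl10a). For 26 proteasome genes the shares were 19.2%, with Psma1, Psma2, Psma4 and Psma5 kept, and 46.2%, with Psma7, Psmb1, Psmb3 and Psmb6 lost. None of the genes in these lists had H3K27me3 in both WT lists. Of 14 genes of the GINS and MCM helicase that opens replication origins, 7 were kept (Mcm4, Mcm5, Mcm7 and Gins1 among them) and 3 lost (Mcm3, Mcm10 and Cdc6). None of 9 fibroblast matrix genes with EZH2 in both WT lists was kept, and 44.4% were lost (Col5a1, Loxl1, Timp2 and Mmp14). PRC1 genes, which encode the partner Polycomb complex, gave 35.3% of 17 kept (Bmi1, Pcgf1, Pcgf5 and Cbx2 among them) and 58.8% lost (Ring1, Pcgf2, Pcgf3 and Pcgf6). In the list of Atrx, Daxx and H3.3 genes, 4 of 8 with EZH2 in both WT lists were kept (Daxx, Hira, Asf1a and Asf1b) and 3 lost (H3f3a, Ubn1 and Dek).

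**Figure D5:**
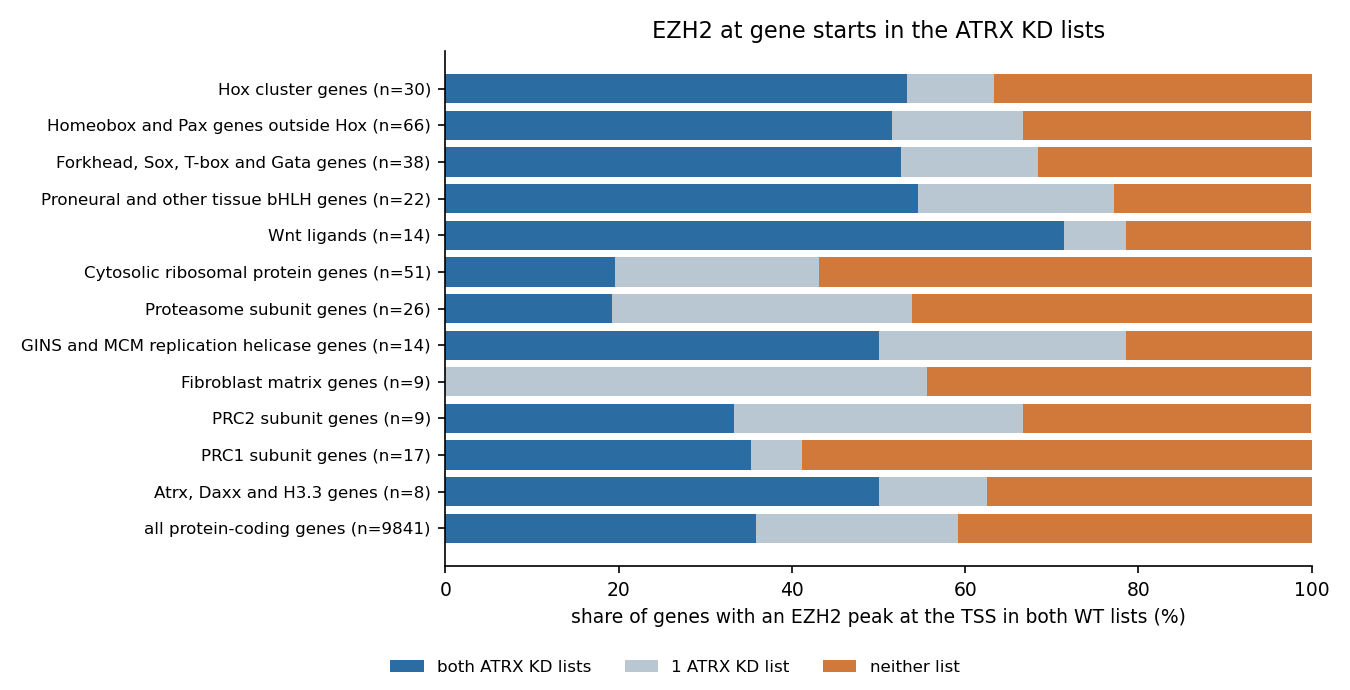
Stacked bars give, for each gene list, the share (%) of its genes called in both WT lists that were also called in both, 1 or neither KD-labelled list, with n beside each name. Wnt ligands stand at 71.4% kept, ribosomal protein genes at 19.6% and all protein-coding genes at 35.8%.

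Of the 12 genes of PRC2 itself, 9 had EZH2 at the TSS in both WT lists, of which 3 (Ezh2, Suz12 and Epop) had it in both KD-labelled lists and 3 (Eed, Phf1 and Mtf2) in neither. EZH2 peaks at the Ezh2 start were 1335 and 610 bp wide in WT and 311 and 208 bp in the KD-labelled lists. Median TPM over all tested genes was 13.6 in WT and 16.7 in the KD-labelled libraries, so TPM ratios stand higher than the count-based folds. Ezh2 RNA stood at 204 and 177 TPM in WT and 243 and 236 in the KD-labelled libraries, a log2 fold change of 0.37 (SE 0.11, edgeR adjusted p = 0.0433) that DESeq2, the replicate block, the fit of all 6 libraries and the fits without either KD-labelled library placed above the threshold. Of the 12 PRC2 genes tested 3 rose and 5 fell, by the same edgeR test, while 15.2% of all tested genes rose and 17.8% fell. Ezh1, the alternative catalytic subunit, rose from 12.3 and 16.5 TPM to 40.8 and 41.5 (log2 fold change 1.26, SE 0.13, adjusted p = 0.000931), and Phf19 rose by 0.83. Those that fell were Aebp2 (-1.07), Mtf2 (-0.78), Phf1 (-0.70), Eed (-0.54) and Rbbp7 (-0.47), accessory and core subunits, while Suz12 (-0.12, adjusted p = 0.479) did not pass the test. The fall of Eed, Rbbp7 and Phf1 did not pass without either KD-labelled library.

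RNA calls at lost promoters stood near those of all genes in both directions. A lost promoter was a TSS window with a lost peak and no kept or partly kept peak, and 3847 of 5204 such genes had enough counts to be tested. Of these, 699 rose (18.2%, background 15.2%) and 770 fell (20%, background 17.8%), by edgeR at an adjusted p of 0.05. At kept promoters 3328 of 4571 genes were tested, and 534 rose (16.0%) and 654 fell (19.7%). The median log2 fold change was -0.01 at lost promoters, -0.05 at kept promoters and -0.02 over all tested genes. With the lists reduced to equal length, 14.7% of 441 genes at lost promoters rose and 21.5% fell. Leaving out a single RNA library moved the number called at lost promoters from 1469 to between 822 (without KD-labelled replicate 2) and 2419 (without WT replicate 2), with 841 without KD-labelled replicate 1.

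Where the promoter carried H3K27me3 in both WT lists, most genes were too low to be tested. Of 823 such lost promoters 256 were tested, and 61 rose (23.8%, background 15.2%) and 62 fell (24.2%, background 17.8%). Of 1178 such kept promoters 406 were tested, and 63 rose (15.5%) and 119 fell (29.3%). A gene near 0 in both groups drops out of the test and one that is high in a single group stays, so these shares describe the tested genes and not all members. Median WT TPM over all members was 0.0250 at those lost promoters and 0.0300 at those kept promoters. At lost promoters without H3K27me3 in either WT list it was 21.3. Most lost promoters, 4289 of 5204, belonged to that last set.

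The 8 rises with the smallest p at lost promoters were Npr3, Ret, Angptl4, Nrip3, Hapln4, Adamtsl5, Adam22 and Adamts2. Npr3, the natriuretic peptide clearance receptor, had EZH2 peaks of 3942 and 3835 bp in WT and none in the KD-labelled lists, and its TPM went from 12.6 and 15.3 to 201 and 208 (log2 fold change 3.77, SE 0.12, edgeR adjusted p = 2.44e-05). Ret, a receptor tyrosine kinase for glial-derived ligands, had peaks of 3056 and 2984 bp and went from 3.00 and 3.24 TPM to 51.7 and 54.7. Hapln4, a hyaluronan link protein, had peaks of 6201 and 5789 bp and went from 0.460 and 0.420 TPM to 13.8 and 11.2. Adamts2, a procollagen peptidase, had peaks of 2452 and 1927 bp and went from 1.45 and 2.25 TPM to 12.9 and 11.7. These genes were chosen by p in the same RNA libraries, so the distance between the groups follows from the choice. Each of these 4 genes carried H3K27me3 in both WT lists. Of the 4, only Adamts2 kept KD-labelled H3K27me3 peaks, of 649 and 414 bp. Angptl4 and Nrip3 had narrow EZH2 peaks of 328 and 348 bp and of 351 and 380 bp without H3K27me3.

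The 8 falls with the smallest p at lost promoters were Cacna2d1, P3h3, Aldh1l2, Msln, Il17ra, Slit2, Gnai1 and Rrad. Cacna2d1, a calcium channel subunit, had 970 and 1110 counts in WT and 0 in both KD-labelled libraries, at least 354-fold lower at a floor of 3 counts per library. Gnai1, a G protein subunit, had 243 and 202 counts and then 0 in both, at least 75.1-fold lower. Slit2, a guidance ligand, went from 51.3 and 100.2 TPM to 7.34 and 11.8, and Aldh1l2, a mitochondrial folate enzyme, from 60.0 and 112 to 3.33 and 3.73. Of the 8, H3K27me3 was called in both WT lists only at Gnai1. Among all 3847 genes tested at lost promoters, 256 carried the mark in both WT lists, and 61 of these rose and 62 fell. The genes picked by p do not stand for that set.

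At kept promoters the smallest p among rises belonged to Elmo1, Slco4a1, Olfm1, Smpd3 and Tuft1, and among falls to Sox2, Rps19, Sirpa, Ulk4 and Msmo1. Sox2, a stem cell and neural factor, had EZH2 peaks of 10986 and 11589 bp in WT and 1967 and 1946 bp in the KD-labelled lists. Its RNA fell from 43.9 and 37.1 TPM to 1.10 and 0.550 (log2 fold change -6.00, SE 0.31, edgeR adjusted p = 9.05e-05) and made up nearly all of the summed level of 6 embryonic stem cell markers, 44.2 and 37.4 TPM in WT and 1.10 and 0.550 in the KD-labelled libraries, and 4 of the 6 markers were at 0 throughout. The summed level of 6 neural markers was 66.5 and 69.0 TPM in WT and 89.1 and 89.7 in the KD-labelled libraries. The part of these markers in the result was not tested, and in bulk RNA fewer cells of a type and less RNA per cell cannot be told apart. Rps19 RNA fell from 459 and 362 TPM to 10.5 and 12.2, with EZH2 peaks of 894 and 872 bp in WT and 450 and 443 bp in the KD-labelled lists. Ribosomal protein genes have many processed copies that share reads, and 52 of 75 tested fell while 1 rose, with a median log2 fold change of -1.14. Over all tested genes 17.8% fell and 15.2% rose.

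Among 6 genes singled out by the study, Fzd7, a Wnt receptor, had EZH2 peaks of 1346 and 873 bp in WT and 618 and 608 bp in the KD-labelled lists, and its RNA rose by a log2 fold change of 0.48 (SE 0.13, edgeR adjusted p = 0.0326), a call lost without either KD-labelled library. Gins2, a replication helicase subunit, had peaks of 822 and 687 bp and of 525 and 542 bp, and its RNA fell by 0.64 on the log2 scale (adjusted p = 0.00663), a call also lost without either KD-labelled library. Slc25a16, a mitochondrial carrier, had peaks of 506 and 614 bp in WT and none in the KD-labelled lists, and its log2 fold change of 0.21 (adjusted p = 0.247) did not pass. At Rnf40, a histone H2B ubiquitin ligase, peaks of 1045 and 742 bp in WT stood beside a 296 bp peak in KD-labelled replicate 2 alone. Parp12 had a peak only in WT replicate 2, of 311 bp, and Atrx one only in WT replicate 1, of 146 bp. RNA of Rnf40 (log2 fold change 0.37, edgeR adjusted p = 0.0670) and Parp12 (-0.11, edgeR adjusted p = 0.575) did not pass the test. None of these 6 starts had H3K27me3 in the WT or KD-labelled lists.

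A small set of peaks was found only in the KD-labelled lists. Of 4134 KD-labelled replicate 1 peaks that overlapped replicate 2, 3727 also overlapped both WT lists and 350 overlapped neither, 8.47%. These gained peaks lay between genes in 54.0% of cases and at gene starts in 17.4%, against 5.21% and 85.0% of the shared peaks. Their median CpG density was 1.09 per 100 bp against 7.97. At least 50% of the bases were repeat-masked in 57.7% of the 307 gained peaks on assembled chromosomes and in 0.242% of shared peaks, and 43 gained peaks lay on unplaced contigs. The telomere unit TTAGGG was held by 17.6% of gained windows, against 10.1% of all WT replicate 1 peaks. In the KD-labelled lists, 13.2% and 12.8% of all peaks away from gene starts held it. The part of position and base composition in this difference was not tested. With lists of equal length the gained share was 23.5% of 3691.

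The KD-labelled H3K27me3 lists covered many gained sites as well. They overlapped 45.4% and 42.3% of the gained peaks, against 1.71% and 1.43% for the WT H3K27me3 lists, and WT ATRX lists overlapped 25.4% and 24.9%. Of the KD-labelled replicate 1 peaks, 34 exceeded the highest -log10 q of WT replicate 1, 36.8, and all 34 were in KD-labelled replicate 2 and in both KD-labelled H3K27me3 lists, 12 in both WT EZH2 lists and 0 in WT H3K27me3 replicate 1. The strongest stood in the noncoding gene Gm33838 (chromosome 9, 35305110 to 35305709), with -log10 q of 179 and 178, followed by a site in Cers5 (chromosome 15, 99735581 to 99736162) at 138 and 144. Widths at these 2 sites were 600 and 612 bp and 582 and 584 bp. That 2 antibodies gave the same narrow sites in the KD-labelled libraries is a measurement. Whether those sites hold either protein was not tested, and the series lists no KD-labelled IgG library.

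Gained peaks at gene starts without a WT peak were led by predicted genes of repeat arrays. The 8 strongest were at Gm10800, Gm10801, Gm21738, Gm10722, Gm11168, Gm10715, Gm17535 and the vomeronasal receptor gene Vmn1r2. Gm10800 had peaks of 1160 and 1171 bp with fold enrichments of 3.87 and 3.91, and Gm10801 had peaks of 1878 and 1889 bp with 3.25 and 3.18. Neither gene had a WT EZH2 or H3K27me3 peak, and both had ATRX peaks in both WT lists. RNA counts of Gm10800 were 21 and 234 in WT and 4 and 10 in the KD-labelled libraries, with the WT libraries far apart (log2 fold change -4.51, SE 1.18, edgeR adjusted p = 0.0250). Reads from near-identical repeat copies cannot be assigned to a single copy, so positions and counts at these genes are uncertain.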

How the data were processed

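CUT&RUN (16 lists) and poly(A) RNA-Seq (6 libraries) of MEFs were used as deposited, and members and gene lists were chosen with earlier results of these data known. Per the methods, the authors mapped reads to mm10 with Bowtie2 and called broad peaks per sample with MACS2 (q-value cut-off 0.1), without pooling replicates. The deposited peak files give a fold enrichment ratio, -log10 p and q-values and a score per peak. STAR and RSEM gave the deposited estimated counts, TPM and FPKM per gene. FPKM and the score were not used. Bowtie2 was run with default settings, which report a single placement of a repeat read. IgG libraries, which the series lists for WT and ATRXΔRBR but not for the KD-labelled line, were not analysed here.

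Here, peaks were compared by overlap of at least 1 bp, and TSS windows of 2 kb either side came from GENCODE M21 (55450 genes). Sequences came from the GRCm38 RefSeq assembly, whose chromosome lengths no peak exceeded. A peak window overlapping an annotated UTR was not printed, so Phb was passed over. Estimated counts were rounded, genes whose counts summed to more than 10 were retained, and edgeR's quasi-likelihood test (edgeR 4.0.16, R 4.3.3) with Benjamini-Hochberg adjustment was fitted without the replicate number. Fold changes are KD-labelled over WT. Named genes were the 12 with the widest kept peak at a TSS, the 12 strongest lost and 8 strongest gained TSS peaks, the called genes of smallest p (8 rises and 8 falls at lost promoters, 5 and 5 at kept promoters), up to the first 4 genes of each list and class (some are not reported here), and 6 genes singled out by the study. P-values measure only the spread between these samples, which the methods call biological replicates without saying how they were separated. The fit and the overlap code were tested on simulated data. Alternatives were other overlap, q-value, TSS window and list length settings, DESeq2 1.42.0, other filters and leaving out libraries.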

Additional observations from a re-analysis of the deposited data

How the results depend on the processing

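Peak count and covered length kept their direction in every setting. Without any single EZH2 library the KD-labelled over WT ratio ran from 0.264 to 0.349 for peak count and from 0.177 to 0.241 for covered length, and at a q-value of 0.01 the covered length ratio was 0.155. Without a library the kept share ran from 16.6% to 36.1%, the lost share from 63.9% to 71.8% and the gained share from 8.64% to 14.8% (12.8% without KD-labelled replicate 2, 14.8% without replicate 1). Leaving out a list also drops it from the class rule, so these shares are of looser classes. Without a KD-labelled list the kept and lost shares cannot fall. At a q-value of 0.01 in all lists the lost share was 64.1%, the gained share 10.2%, the kept minus lost difference in H3K27me3 overlap 4.56 points for WT and 7.03 for the KD-labelled lists, and calls at kept promoters 767. At an overlap of 50% the kept share was 7.89%, the lost share 76.0%, the gained share 9.20%, and the H3K27me3 differences were -14.9 (WT, reversed) and 1.43 (KD-labelled). With WT replicate 2 as anchor these differences were 5.03 and 15.1. With lists of equal length the kept share was 56.4%, the lost share 25.2%, the gained share 23.5%, the H3K27me3 differences 5.33 and 16.0, the ATRXΔRBR EZH2 difference 7.35 (29.9 otherwise), and calls at lost and kept promoters 160 and 644, from fewer genes. The cause of these shifts was not tested. Library depth behind the peak lists is unknown and may limit the shorter lists.

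RNA calls numbered 5542. The replicate block gave 5796, and since same-numbered libraries did not deviate together (correlation -0.0724) the numbers are not taken to pair them. Leaving out a library gave 3194 (without KD-labelled replicate 2) to 8953 (without WT replicate 2) calls in all, 3520 without KD-labelled replicate 1, 822 to 2419 at lost promoters and 642 to 2036 at kept promoters. Of 435 fold changes of 44 named genes under these settings, 409 kept direction and side of the threshold, 15 lost the call and 10 gained one, and Rbbp4 turned from 0.03 to -0.17 without WT replicate 2 (0.23, past the threshold, without WT replicate 1).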
